A study of Mus musculus with 12 samples.

Results

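The respiratory chain and ATP synthase of mitochondria are built from subunits encoded by nuclear genes and by the small mitochondrial genome, and the genes of these subunits were compared in inguinal white adipose tissue (iWAT) of AAV-Notum and AAV-GFP treated mice. Members were chosen by gene symbol alone: Ndufa, Ndufb, Ndufc, Ndufs and Ndufv genes, Sdha to Sdhd, Uqcr genes, Cox4 to Cox8 genes, Atp5 genes, and the mt-Nd, mt-Co, mt-Cytb and mt-Atp genes. This took 95 of the 54134 genes of the count table, 82 of them nuclear-encoded and 13 mitochondrial-encoded. By complex, 42 genes belonged to complex I, 4 to complex II, 9 to complex III, 22 to complex IV and 18 to complex V. Ndufa4 was placed with complex IV, to which its protein belongs despite its name. Atp5s, also known as factor B, was kept because its symbol fits the rule.

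RNA was sequenced from iWAT of 12 male C57BL/6J mice, 6 per group, with 1 library per mouse. All received an adeno-associated virus (AAV) of serotype 8 through the tail vein at 8 weeks of age, encoding green fluorescent protein (AAV-GFP) or mouse Notum, a secreted enzyme that inactivates Wnt proteins (AAV-Notum). The virus carried a human thyroxine-binding globulin promoter, which is active in the liver. Every mouse ate chow for 4 weeks after infection and was fasted for 4 h before tissue was taken at 12 weeks of age. Levels are given in CPM, counts scaled to the size of each library. Total counts per library ran from 14711113 to 21618860. RNA integrity numbers ran from 5.7 to 7.6 in AAV-GFP mice and from 6.9 to 7.4 in AAV-Notum mice. Mice are named by group and number. The RNA of AAV-GFP-2012 was isolated on another day than that of the other 11 mice. Notum itself was at 0.0595 to 0.995 CPM in AAV-GFP iWAT and at 0.457 to 0.905 CPM in 4 AAV-Notum mice, with 29.3 CPM in AAV-Notum-2032 and 26.6 CPM in AAV-Notum-2041, and the source of these transcripts was not tested. The promoter is a liver one, so Notum in iWAT checks no label.

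White adipocyte markers such as Adipoq and Plin1 were abundant in every library, with a summed level of 45910.1 to 81911 CPM in AAV-GFP mice and 41869 to 96507 CPM in AAV-Notum mice. Other cell types varied between mice. Lymphoid markers summed to 10.3 to 1818 CPM in AAV-GFP mice, with AAV-GFP-2011 and AAV-GFP-2014 at 15.8 and 10.3 CPM, and to 577 to 2548 CPM in AAV-Notum mice. Skeletal muscle markers reached 5298 CPM in AAV-Notum-2042 against 31.0 to 1155 CPM in the other mice. Hepatocyte markers reached 5382 CPM in AAV-GFP-2013, 1428 CPM in AAV-GFP-2014 and 776 CPM in AAV-Notum-2041, against 20.1 to 325 CPM elsewhere. Adipose progenitor markers summed to 969 to 1579.6 CPM in AAV-GFP and 959 to 1206 CPM in AAV-Notum mice (0 of 6 above the mean of the AAV-GFP group), endothelial markers to 676 to 1084 and 645 to 869 CPM (1 of 6), and macrophage markers to 474 to 1485 and 877 to 1640.0 CPM (5 of 6). In edgeR, 2 genes of each of these 3 lists and 2 hepatocyte genes were lower at an unadjusted p under 0.05, as were 9.54% of all genes tested, and 0 higher, whereas 1 brown and beige adipocyte gene was higher, as were 4.64% of all genes, and 0 lower. Skeletal muscle, lymphoid and white adipocyte genes had none higher or lower at that p. The median log2 fold change was -2.79 for hepatocyte, -0.27 for endothelial, -0.22 for white adipocyte and -0.21 for adipose progenitor genes. It was -0.10 for macrophage, 0.37 for brown and beige adipocyte, 0.99 for lymphoid and 1.37 for skeletal muscle genes. Of the markers, 8 of 8 adipose progenitor, 8 of 8 endothelial, 9 of 10 macrophage, 12 of 12 white adipocyte, 15 of 15 lymphoid, 13 of 15 skeletal muscle, 8 of 8 hepatocyte and 8 of 10 brown and beige adipocyte genes passed the filter on low counts, and none was at 0 in every mouse. In whole tissue, fewer cells of a type and less RNA per cell cannot be told apart.

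As background, complex I passes electrons from NADH and complex II from succinate to coenzyme Q, complex III passes them on to cytochrome c, and complex IV hands them to oxygen. Complexes I, III and IV pump protons across the inner membrane, and complex V, the ATP synthase, uses the gradient to make ATP. The mitochondrial genome encodes membrane core subunits of complexes I, III, IV and V, while every subunit of complex II is nuclear. White adipocytes hold fewer mitochondria than brown or beige adipocytes, in which uncoupling protein 1 (Ucp1) lets protons return without making ATP.

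Of the 13 mitochondrial-encoded genes, 7 could be measured. mt-Co2, mt-Co3, mt-Atp8 and mt-Nd4l had 0 reads in all 12 libraries, mt-Atp6 had 1 read in all, and mt-Nd3 had 0 to 4 reads per library. These genes lie between others that were among the most abundant transcripts: mt-Co1 had 121817 reads or more in every library and mt-Cytb 149113 or more. The sequences of the genes without reads differ from those of the measured ones in how far other annotated genes repeat them. When each transcript was cut into windows of 50 bases, the length of the reads, 100% of the windows of mt-Co2, 99.9% of mt-Co3, 99.5% of mt-Atp6, 98.8% of mt-Nd4l and 98.0% of mt-Nd3 were also found letter for letter in another annotated gene, mostly Gm genes on chromosome 1. The share was 0% for mt-Nd1, mt-Nd6 and mt-Cytb, 7.61% for mt-Nd5, 8.19% for mt-Nd2, 51.1% for mt-Co1 and 62.2% for mt-Nd4. The exception was mt-Atp8, with 0 reads and 0% of its windows shared. The chromosome 1 copies held few reads themselves, with 18 in all 12 libraries for Gm28661 (the copy of mt-Co2), 14 for Gm28437 (mt-Co3) and 15 for Gm10925 (mt-Atp6).

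A window of mt-Co2 and one of mt-Nd1 show the difference. The first, bases 318 to 367 of the mt-Co2 transcript, is also present in 2 other annotated genes, Gm28661 on chromosome 1 and Gm13341 on chromosome 2. The other, bases 454 to 503 of the mt-Nd1 transcript, is present in 0 other annotated genes. Both are from the GENCODE release 21 transcripts of GRCm38.
mt-Co2: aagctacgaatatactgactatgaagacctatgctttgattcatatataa
mt-Nd1: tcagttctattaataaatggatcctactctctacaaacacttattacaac

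**Figure D1:**
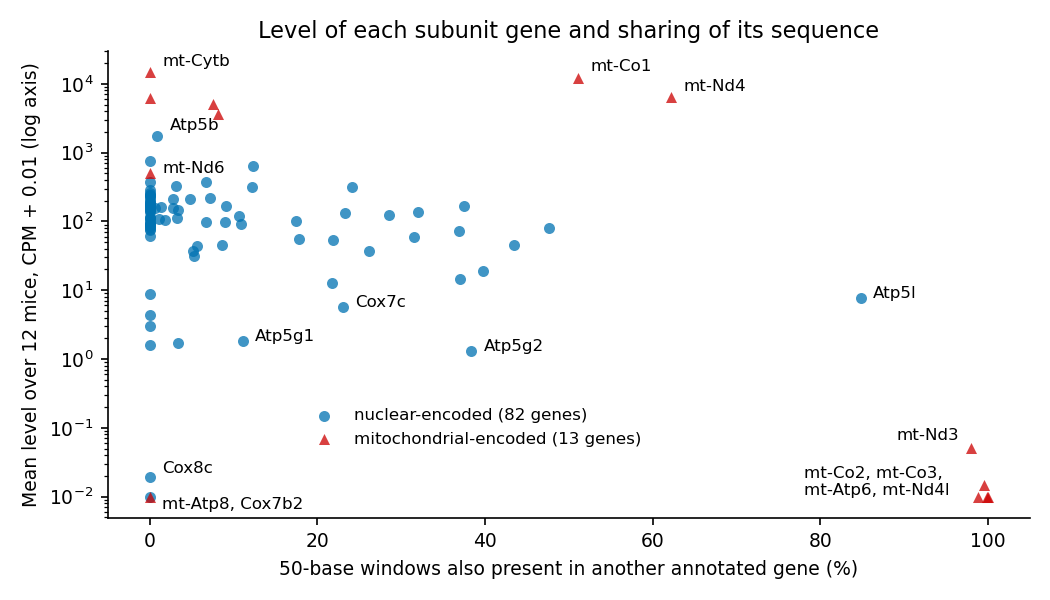
Mean level over 12 mice (CPM plus 0.01, log axis) against the percentage of 50-base windows that another annotated gene repeats, for the 82 nuclear-encoded (circles) and 13 mitochondrial-encoded (triangles) subunit genes. The mitochondrial-encoded genes above 90% shared windows sit at the bottom of the plot, while mt-Co1 and mt-Nd4, at 51.1% and 62.2%, sit near the top.

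Among the measured mitochondrial-encoded genes, mt-Nd6 stood out by strand. It is the single one of the 13 that lies on the minus strand of the mitochondrial chromosome (position 13552 to 14070), next to mt-Nd5 on the plus strand (11742 to 13565). In the raw count table, mt-Nd6 had 7.04% to 13.5% of the level of mt-Nd5 (median 9.75% over 12 mice). In the other deposited table, which holds log2 values that are not these counts rescaled, this share was 37.0% to 53.9% (median 46.8%). Relative to the median of the 15548 genes in both tables, the mean of mt-Nd6 was 5.10-fold higher in the other table, while the other 6 measured mitochondrial-encoded genes were at 0.992 to 1.10. In the raw table the share was 7.04% to 10.4% in AAV-GFP mice and 9.56% to 13.5% in AAV-Notum mice, so the groups overlapped. Whether either count took account of strand is not given in the sources used here, and the level of mt-Nd6 therefore depends on the table. Of the other members, Ndufb6 and Cox5a, at 0.640 and 0.381 of the raw table's level, differed by more than 1.5-fold, as did 4.33% of all genes. The share of windows also found in another annotated gene was 31.6% for Ndufb6 and 32.0% for Cox5a. For Ndufb6 the other gene was Smim27, on chromosome 4 like Ndufb6. For Cox5a it was Gm26631, on chromosome 9 like Cox5a, in 174 of the 191 shared windows.

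All but 2 of the nuclear-encoded genes passed the filter on low counts. Cox7b2 had 0 reads and Cox8c 0 to 1 read per library, both of them isoforms known from testis. Some nuclear members also had shared sequence. In 17 of the 82 nuclear genes, more than 20% of the windows were repeated in another annotated gene, and their median level, per kilobase (kb) of transcript, was 83.7 CPM per kb, against 133 CPM per kb in the 36 genes with no shared window and 146 CPM per kb in the 29 genes with up to 20% shared. Atp5l, the g subunit of ATP synthase, had 84.8% of its windows shared and 6.91 ± 1.05 CPM in AAV-GFP mice (SD, n = 6). Cox7c had 23.0% shared and 5.26 ± 0.806 CPM. The part of sequence sharing in these levels was not tested.

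Per kb of transcript, 6 of the 7 measured mitochondrial-encoded genes were far above every nuclear one, and mt-Nd6 was level with the highest of these. mt-Cytb, the cytochrome b of complex III, was the highest at 12978 CPM per kb (mean of 12 mice), followed by mt-Co1, the catalytic subunit of complex IV, at 7938. In complex I, mt-Nd1 had 6540.1 CPM per kb and mt-Nd6 983, whereas the 35 nuclear genes had a median of 99.3, with Ndufb2 the lowest at 7.14 on a transcript of 4371 bases (29.4 ± 5.33 CPM in AAV-GFP mice; SD, n = 6). The nuclear median was 170.4 CPM per kb in complex II, 171 in complex III, 169 in complex IV and 117 in complex V. Within complex V the catalytic beta subunit Atp5b, at 903 CPM per kb, stood 9.71- to 11.7-fold above the alpha subunit Atp5a1 in every mouse, although the proteins are present in equal number in the enzyme. Cox4i1, at 836 CPM per kb, was the highest nuclear gene of complex IV, and Uqcrh, at 394, that of complex III.

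No subunit gene passed the test between AAV-Notum and AAV-GFP mice. In edgeR's quasi-likelihood test on all 15585 genes that passed the filter on low counts, 0 of the 87 measured subunits had an adjusted p under 0.05 in either direction (smallest adjusted p = 0.306). Among all genes tested, 0% were called higher and 0.0513% lower at that threshold. DESeq2 also gave 0, where it called 0.584% of all genes higher and 2.61% lower, and so did limma-voom (0% and 0.0385%). At an unadjusted p under 0.05, 4 subunits were higher in AAV-Notum mice and 0 lower, where the background over all genes was 4.64% higher and 9.54% lower. The 4 of 87 come to 4.60%, close to the background. That count was 0 without AAV-Notum-2042 (background of the same fit 6.77% higher), and 1 without AAV-GFP-2013 (6.15%) or AAV-Notum-2034 (3.15%). It was 2 without AAV-GFP-2011 (2.88%), AAV-GFP-2012 (2.99%), AAV-Notum-2033 (4.01%) or AAV-Notum-2041 (4.28%), and 12 of the 87 without AAV-Notum-2032 (3.78%). DESeq2 gave 4 higher (background 5.68%) and limma-voom 3 (9.38%), with 0 lower in both (11.0% and 8.52%). For no subunit were the groups apart, that is, every AAV-Notum mouse above or below every AAV-GFP mouse. Over all genes tested, 0.398% were apart and higher and 0.693% apart and lower.

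The fold changes leaned one way but were small. The log2 fold change was above 0 for 76 of the 87 subunits (87.4%), against 51.2% of all genes, and the median was 0.12 for the 80 nuclear and 0.34 for the 7 mitochondrial-encoded genes, against 0.0077 for all genes. The median standard error was 0.16 for nuclear and 0.34 for mitochondrial-encoded genes, so a typical fold change was no larger than its error. By complex, the nuclear median was 0.09 in complex I (29 of 35 above 0), 0.06 in complex II (4 of 4), 0.18 in complex III (8 of 8), 0.15 in complex IV (16 of 17) and 0.11 in complex V (12 of 16). Subunit genes deviated together within a mouse, so these counts are not independent observations. Without AAV-Notum-2042, the median of the nuclear genes was 0.03 with 47 of 80 above 0, and that of complex II was -0.03. Without AAV-Notum-2032, the nuclear median was 0.19.

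**Figure D2:**
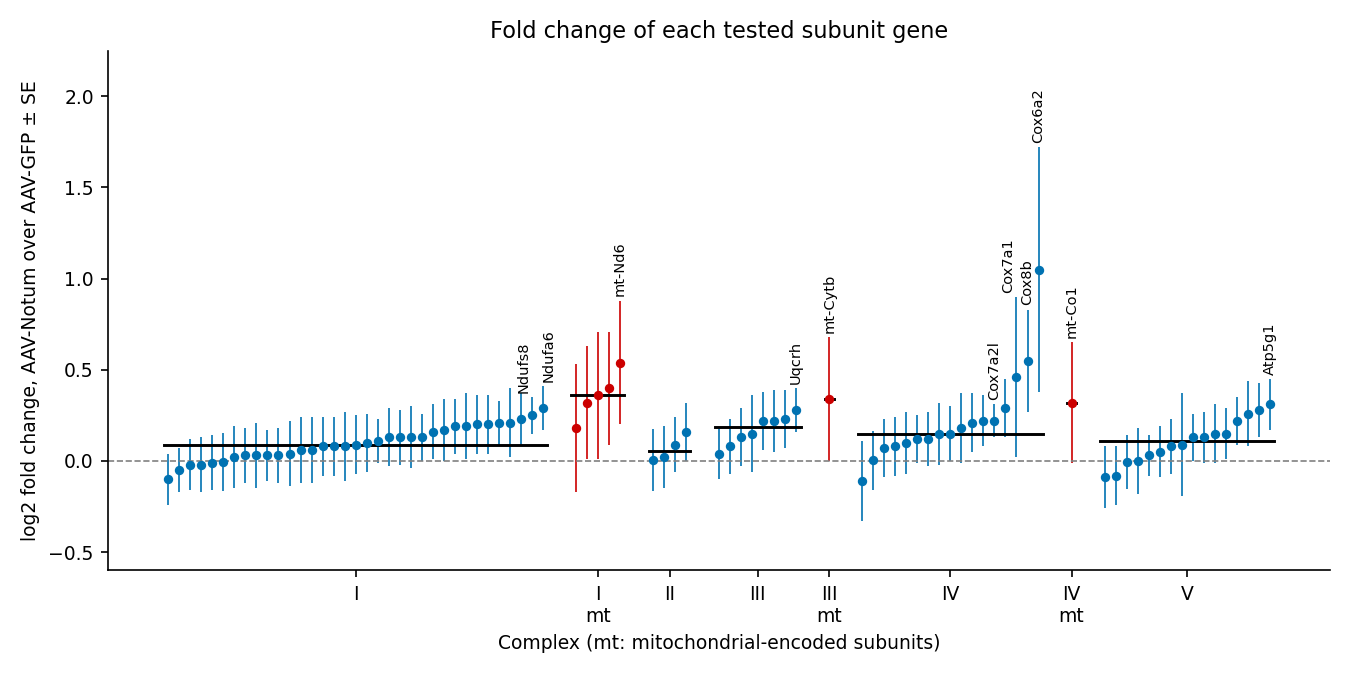
log2 fold change of AAV-Notum over AAV-GFP mice, with its standard error, for each of the 87 measured subunit genes, ordered within complex (blue, nuclear-encoded; red, mitochondrial-encoded) with the median of each group as a black line. The medians lie between 0.06 and 0.18 for nuclear groups and between 0.32 and 0.36 for mitochondrial-encoded groups.

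In complex I the smallest p belonged to Ndufs8 (ENSMUSG00000059734, chromosome 19 of GRCm38, 3908863 to 3912774), an iron-sulfur subunit of the arm that takes electrons from NADH. Ndufs8 had 62.4 CPM in the lowest, 69.0 in the median and 80.2 in the highest AAV-GFP mouse, and 62.0, 86.2 and 93.9 CPM in AAV-Notum mice. AAV-Notum-2031 and AAV-Notum-2032, at 77.5 and 62.0 CPM, lay within the AAV-GFP range and just under it, and the other 4 above it. The fold change on the log2 scale was 0.25 (standard error 0.10, p = 0.0300, adjusted p = 0.306, exact permutation p = 0.0498). Ndufa6, an accessory subunit, had 93.4, 104 and 112 CPM in AAV-GFP mice and 89.9, 130.1 and 163 CPM in AAV-Notum mice (log2 fold change 0.29, standard error 0.12, adjusted p = 0.307). In the other direction, Ndufa7 had the smallest p, with 107 ± 22.0 CPM (SD, n = 6) in AAV-GFP and 99.8 ± 15.3 CPM in AAV-Notum mice (adjusted p = 0.694).

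Other core subunits of complex I were closer between groups. Ndufs1, the largest iron-sulfur subunit, had 203 ± 35.1 CPM in AAV-GFP and 217 ± 48.0 CPM in AAV-Notum mice (SD, n = 6 each). Ndufv1, which binds NADH through its flavin, had 192 ± 36.4 and 189 ± 36.8 CPM, and its partner Ndufv2 had 157 ± 20.7 and 180.5 ± 45.0 CPM. Ndufs7 had 91.1 ± 15.1 and 88.2 ± 11.0 CPM, and Ndufs3 had 19.0 ± 4.13 and 19.5 ± 2.61 CPM. The ranges of the groups overlapped for each of these genes, and their log2 fold changes ran from -0.05 (Ndufs7) to 0.20 (Ndufv2).

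Complex II is also an enzyme of the citric acid cycle. Sdha, the flavoprotein that oxidizes succinate, had 756 ± 145 CPM in AAV-GFP and 757 ± 164 CPM in AAV-Notum mice (log2 fold change 0.0025, standard error 0.17). Sdhb, its iron-sulfur partner, had 218 ± 36.5 and 243 ± 54.2 CPM (0.16, standard error 0.16, adjusted p = 0.597). The membrane anchors Sdhc and Sdhd had log2 fold changes of 0.02 and 0.09. For Sdha, Sdhb, Sdhc and Sdhd alike, the highest AAV-GFP mouse was AAV-GFP-2014 and the lowest AAV-Notum mouse was AAV-Notum-2032.

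In complex III, Uqcrh (ENSMUSG00000063882, chromosome 4, 116066965 to 116075071), the hinge protein beside cytochrome c1, had 177, 194 and 213 CPM in the lowest, median and highest AAV-GFP mouse and 170.0, 241 and 302 CPM in AAV-Notum mice. AAV-Notum-2033, AAV-Notum-2034, AAV-Notum-2041 and AAV-Notum-2042 were above the AAV-GFP range, AAV-Notum-2031 within it and AAV-Notum-2032 below it. The log2 fold change of Uqcrh was 0.28 (standard error 0.12, p = 0.0418, adjusted p = 0.335, exact permutation p = 0.0693). The Rieske iron-sulfur protein Uqcrfs1 had 224 ± 33.1 and 260.2 ± 67.7 CPM (SD, n = 6 each), and the core proteins Uqcrc1 and Uqcrc2 had log2 fold changes of 0.04 and 0.13. Cyc1, the cytochrome c1 that the symbol rule leaves out, had 196 ± 34.9 and 210.2 ± 35.1 CPM (log2 fold change 0.10).

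In complex IV the smallest p belonged to Cox7a2l (ENSMUSG00000024248, chromosome 17, 83501918 to 83517330), a relative of Cox7a subunits. Other work ties it to the joining of complexes III and IV into supercomplexes, a role not examined in these mice. Cox7a2l had 44.6, 51.0 and 63.3 CPM in the lowest, median and highest AAV-GFP mouse, and 55.0, 61.7 and 65.3 CPM in AAV-Notum mice. All 6 of the latter exceeded the mean of the AAV-GFP group, and the ranges overlapped. This gave a log2 fold change of 0.22 (standard error 0.09, p = 0.0401, adjusted p = 0.329, exact permutation p = 0.0519). Cox7a2l had 17.8% of its windows repeated elsewhere. Cox4i1, which regulates the complex, had 605 ± 79.4 and 673 ± 141 CPM, and Cox5a had 128 ± 15.7 and 148 ± 38.5 CPM (SD, n = 6 each). Cox7b had 143 ± 20.5 and 175 ± 42.0 CPM (log2 fold change 0.29, adjusted p = 0.413), and the abundant Cox6b1 had 275 ± 49.4 and 306 ± 70.6 CPM. The single gene of the complex with a log2 fold change under 0 was Cox6b2, at 1.67 ± 0.341 and 1.55 ± 0.429 CPM.

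In complex V, Atp5b had 1731 ± 374 CPM in AAV-GFP and 1730.2 ± 343 CPM in AAV-Notum mice (SD, n = 6 each; log2 fold change -5.2e-04, standard error 0.18). Atp5a1 had 208 ± 34.0 and 215 ± 38.3 CPM, and the central stalk subunit Atp5c1 had 314 ± 52.3 and 332 ± 67.0 CPM. Atp5g1, Atp5g2 and Atp5g3 encode the same c subunit of the rotor ring. In AAV-GFP mice Atp5g3 had 540.1 CPM per kb, against 0.341 for Atp5g1, on a transcript of 4715 bases, and 1.73 for Atp5g2, on 731 bases. Atp5g1 had 1.35, 1.59 and 1.91 CPM in AAV-GFP and 1.66, 2.08 and 2.25 CPM in AAV-Notum mice, and 6 of 6 exceeded the mean of the AAV-GFP group (log2 fold change 0.31, adjusted p = 0.355, exact permutation p = 0.0195). Atp5g3 had 391 ± 78.3 and 366 ± 79.0 CPM (log2 fold change -0.09, adjusted p = 0.765). In Atp5g1 and Atp5g2, 11.1% (542) and 38.3% (622) of the windows were also found in other annotated genes, against 0% in Atp5g3. The part of this in their levels was not tested.

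For mitochondrial-encoded subunits the highest levels were in 2 AAV-Notum mice. The 7 measured genes summed to 29128 CPM in the lowest, 42843 in the median and 59606 in the highest AAV-GFP mouse, and to 32232, 41633 and 96362 CPM in AAV-Notum mice. AAV-Notum-2041 and AAV-Notum-2042 were at 96362 and 81684 CPM, above every other mouse, while the other 4 AAV-Notum mice lay within the AAV-GFP range. As a share of all counts, the 7 genes took 8.78% and 7.20% in these mice against 3.10% to 5.35% in the other 10. For each of the 7 genes the same pair stood above all other mice, by little in the case of mt-Nd5 in AAV-Notum-2042 (7507 CPM against 7436 in AAV-GFP-2014). mt-Nd1, in the membrane arm of complex I, had 3745 to 7103 CPM in AAV-GFP mice and 4298 to 5841 CPM in 4 AAV-Notum mice, with 12468 in AAV-Notum-2041 and 10689 in AAV-Notum-2042. mt-Cytb had 9186 to 17741 CPM in AAV-GFP mice, and 29109 and 25820.3 CPM in these AAV-Notum mice. For mt-Co1 the AAV-GFP range was 7970.3 to 14584 CPM, and AAV-Notum-2041 and AAV-Notum-2042 had 24576 and 19313 CPM.

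No mitochondrial-encoded gene passed the test. Log2 fold changes were 0.40 for mt-Nd1, 0.36 for mt-Nd2, 0.32 for mt-Nd4, 0.18 for mt-Nd5, 0.54 for mt-Nd6, 0.34 for mt-Cytb and 0.32 for mt-Co1, with standard errors of 0.31 to 0.35. The smallest adjusted p of the 7 was 0.451, for mt-Nd6, whose log2 fold change was 0.32 in the other deposited table. Without AAV-Notum-2041 the median of the 7 was 0.11, and without AAV-Notum-2042 it was 0.19. In AAV-Notum-2041 and AAV-Notum-2042 the RNA integrity numbers were 7.4 and 6.9, skeletal muscle markers summed to 91.8 and 5298 CPM, and hepatocyte markers to 776 and 31.3 CPM. Brown and beige adipocyte markers were highest in the same mice, at 399 and 298 CPM against 110.0 to 227 CPM in the other 10. Within that list Ucp1 was at 47.4 and 13.7 CPM, and Cidea at 153 and 109 CPM. The part of RNA integrity and of these cell types in the mitochondrial-encoded level was not tested.

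**Figure D3:**
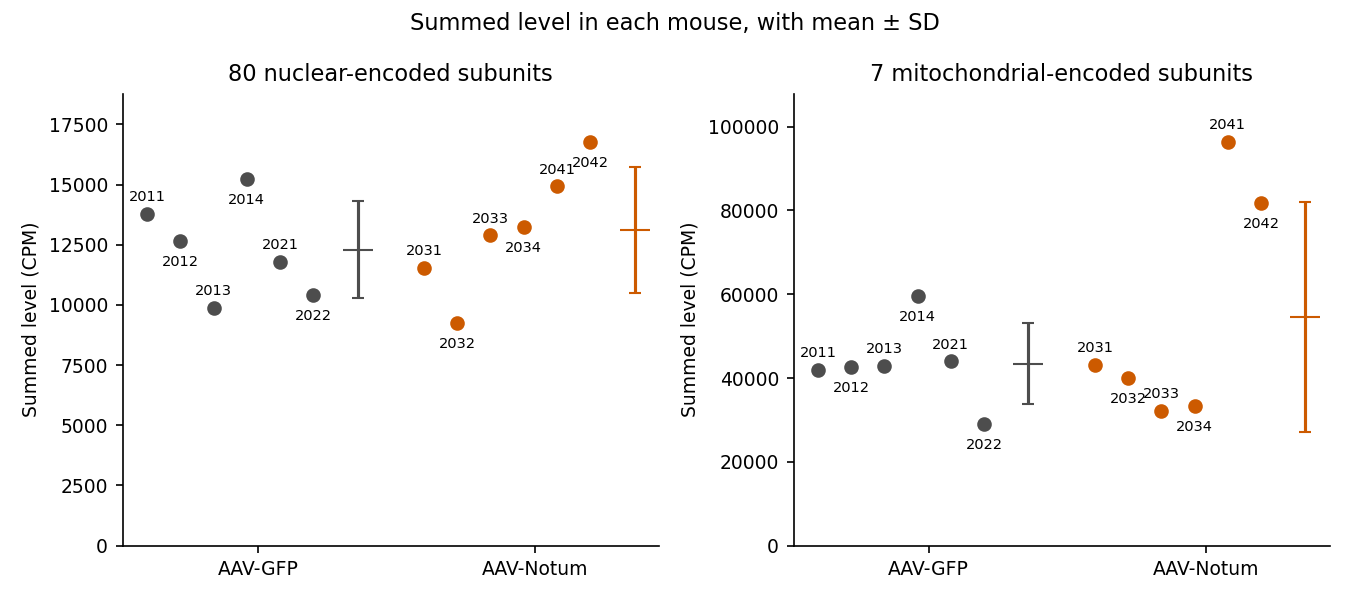
Summed level (CPM) of the 80 measured nuclear-encoded subunits (left) and the 7 measured mitochondrial-encoded subunits (right) in each mouse, named by its number, with the mean and SD of each group of 6 beside the points. AAV-Notum-2041 and AAV-Notum-2042 stand above all others on the right at 96362 and 81684 CPM, and the groups overlap on both sides.

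Nuclear-encoded subunits varied less. They summed to 9876 to 15241 CPM in AAV-GFP and 9261 to 16768 CPM in AAV-Notum mice, a 1.81-fold range over all mice compared to 3.31-fold for mitochondrial-encoded subunits. The median coefficient of variation over the 12 mice was 19.3% for a nuclear gene and 42.5% for a mitochondrial-encoded one, with 22.2% for all genes tested. The log2 ratio of mitochondrial-encoded to nuclear-encoded CPM was 1.81 ± 0.24 in AAV-GFP and 1.94 ± 0.54 in AAV-Notum mice (SD, n = 6 each), with AAV-Notum mice at both ends of the range, 1.32 in AAV-Notum-2033 and 2.69 in AAV-Notum-2041. Without AAV-Notum-2041 the difference between groups, 0.14, became -0.01.

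In most mice the nuclear subunits deviated in one direction, and the complexes followed each other. In AAV-Notum-2042, 79 of the 80 nuclear genes were above their own mean over the 12 mice, with a median deviation of 0.44 on the log2 scale. In AAV-Notum-2032, 6 of 80 were above it, with a median of -0.41. Mice also differed within the AAV-GFP group, where AAV-GFP-2014 had 70 of 80 above the mean and AAV-GFP-2013 had 5. AAV-GFP-2012 and AAV-Notum-2033 were split, with 39 and 46 of 80 above it. The median deviation of the 5 complexes in one mouse ranged from 0.41 to 0.48 in AAV-Notum-2042, and from -0.46 to -0.38 in AAV-Notum-2032. Mitochondrial-encoded subunits did not follow this order in every mouse. In AAV-Notum-2034 the nuclear median was 0.12 and the mitochondrial-encoded one -0.45.

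**Figure D4:**
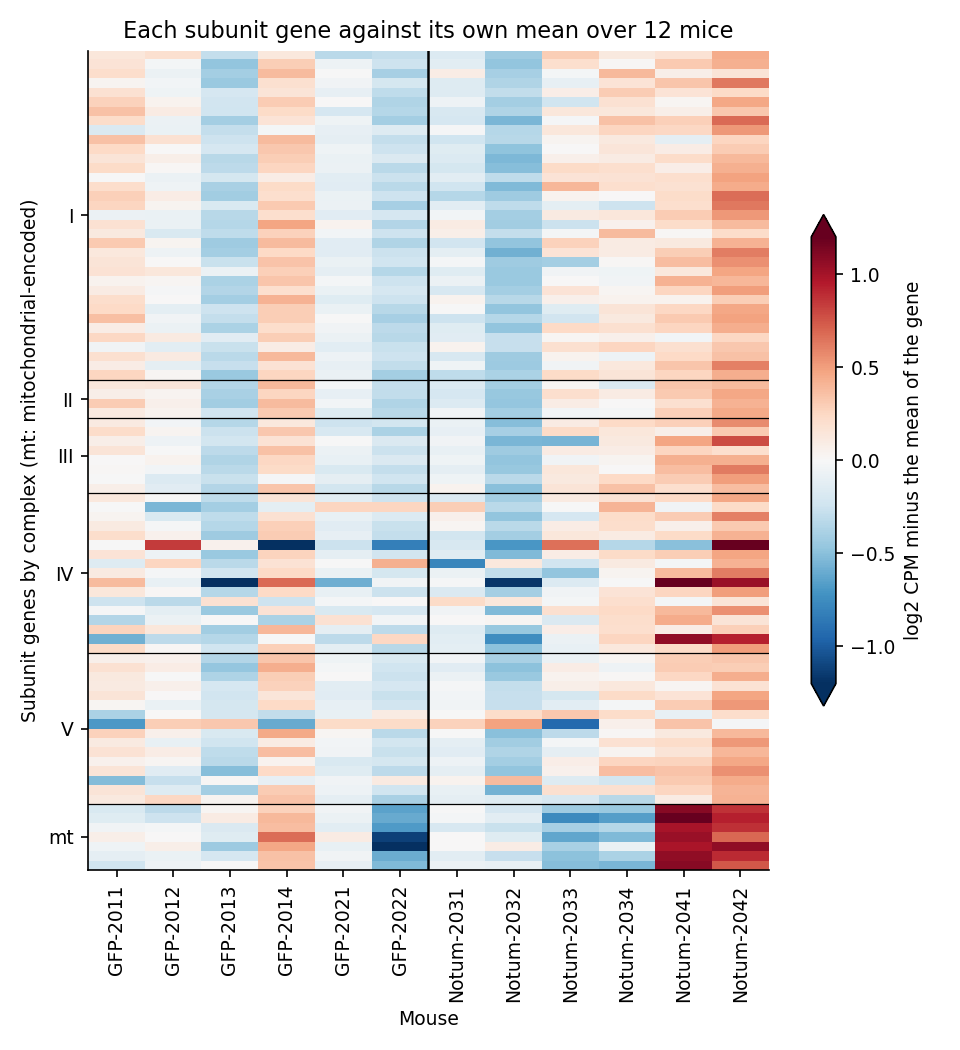
log2 CPM of each of the 87 measured subunit genes (rows, by complex, with the mitochondrial-encoded genes as the lowest block) minus the mean of that gene over the 12 mice (columns, AAV-GFP left of the line and AAV-Notum right of it). Across the nuclear complexes the column of AAV-Notum-2042 is nearly all red and that of AAV-Notum-2032 nearly all blue, those of AAV-GFP-2012 and AAV-Notum-2033 are mixed, and the mitochondrial-encoded block is darkest red in AAV-Notum-2041 and AAV-Notum-2042.

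At the extremes, white adipocyte markers were in the same order as the nuclear subunits and lymphoid markers in the opposite order. The white adipocyte markers summed to 96507 CPM in AAV-Notum-2042 and to 41869 CPM in AAV-Notum-2032, the extremes of the 12 mice. Lymphoid markers were at 577 CPM in AAV-Notum-2042, the lowest of the AAV-Notum mice, and at 2548 CPM in AAV-Notum-2032, the highest of all mice. With the lymphoid marker score (mean log2 CPM) as a covariate, the nuclear median was 0.32 and 50 of 87 subunits were higher at an unadjusted p under 0.05, against a background of 4.20% of all genes, but 0 passed the adjusted threshold, as in the background of 0% (smallest adjusted p = 0.362). With the white adipocyte score as a covariate, 39 subunits were higher at an unadjusted p under 0.05 (background 14.0%). In that fit Ndufs8 (adjusted p = 0.0336), Ndufv3 (adjusted p = 0.0449) and Uqcrh (adjusted p = 0.0479) passed the adjusted threshold, as did 1.13% of all genes in the same direction. Without AAV-GFP-2011 and AAV-GFP-2014, which had few lymphoid transcripts, 5 subunits were higher at an unadjusted p under 0.05 (background 2.16%), 0 passed the adjusted threshold (background 0%) and the nuclear median was 0.23.

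Several complex IV subunits exist as isoforms, a widely expressed one and one of heart, skeletal muscle and brown fat. Widely expressed isoforms made up most of the RNA in iWAT. Per kb, Cox6a2 was 0.0780% to 1.66% of the sum of Cox6a2 and Cox6a1, Cox7a1 was 1.61% to 7.57% of Cox7a1 and Cox7a2, and Cox8b was 16.1% to 40.4% of Cox8b and Cox8a. The lung isoform Cox4i2 and the testis isoform Cox6b2 were each under 1% of their pair, with at most 0.685% and 0.931%.

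Cox8b (ENSMUSG00000025488, chromosome 7, 140898945 to 140900446) had 37.8, 45.5 and 67.0 CPM in the lowest, median and highest AAV-GFP mouse and 33.6, 60.5 and 118 CPM in AAV-Notum mice. AAV-Notum-2041 and AAV-Notum-2042, at 118 and 108 CPM, were above every AAV-GFP mouse, AAV-Notum-2034 was level with the highest AAV-GFP mouse at 67.3 CPM, and AAV-Notum-2032 was the lowest of the 12. The log2 fold change of Cox8b was 0.55 (standard error 0.28, adjusted p = 0.386, exact permutation p = 0.186), and 0.35 without AAV-Notum-2041. The partner Cox8a had 254 ± 56.7 and 255 ± 44.6 CPM (SD, n = 6 each; log2 fold change 0.0032). Cox7a1 was likewise highest in AAV-Notum-2041 and AAV-Notum-2042, at 10.2 and 7.90 CPM against 1.35 to 6.14 CPM elsewhere (log2 fold change 0.46, adjusted p = 0.576), and its log2 fold change was 0.14 without AAV-Notum-2041 and 0.29 without AAV-Notum-2042. These are the mice with the highest brown and beige markers. Skeletal muscle markers summed to 91.8 CPM in AAV-Notum-2041 and to 5298 CPM in AAV-Notum-2042, the highest of all mice. The part of either cell type in the Cox8b and Cox7a1 levels was not tested.

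Cox6a2 followed another mouse pattern. It was at 8.35 CPM in AAV-Notum-2042 and at 0.358 to 2.20 CPM in the other 11, and its fitted log2 fold change, 1.05 with a standard error of 0.67 (adjusted p = 0.458), became -0.04 without that mouse. AAV-Notum-2042 also had the highest skeletal muscle markers, 5298 CPM, with Acta1 at 614 CPM and Ckm at 464 CPM. The next highest Cox6a2 levels, 2.20 CPM in AAV-GFP-2012 and 1.92 CPM in AAV-Notum-2033, came with muscle markers of 1155 and 763 CPM. AAV-GFP-2011, with muscle markers of 820.0 CPM, had 1.18 CPM of Cox6a2, no more than AAV-GFP-2013 (1.23 CPM) with muscle markers of 265 CPM. AAV-Notum-2041, with muscle markers of 91.8 CPM, had 0.800 CPM of Cox6a2 and the highest Cox8b and Cox7a1 levels. The part of muscle fibres in the Cox6a2 level was not tested.

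**Figure D5:**
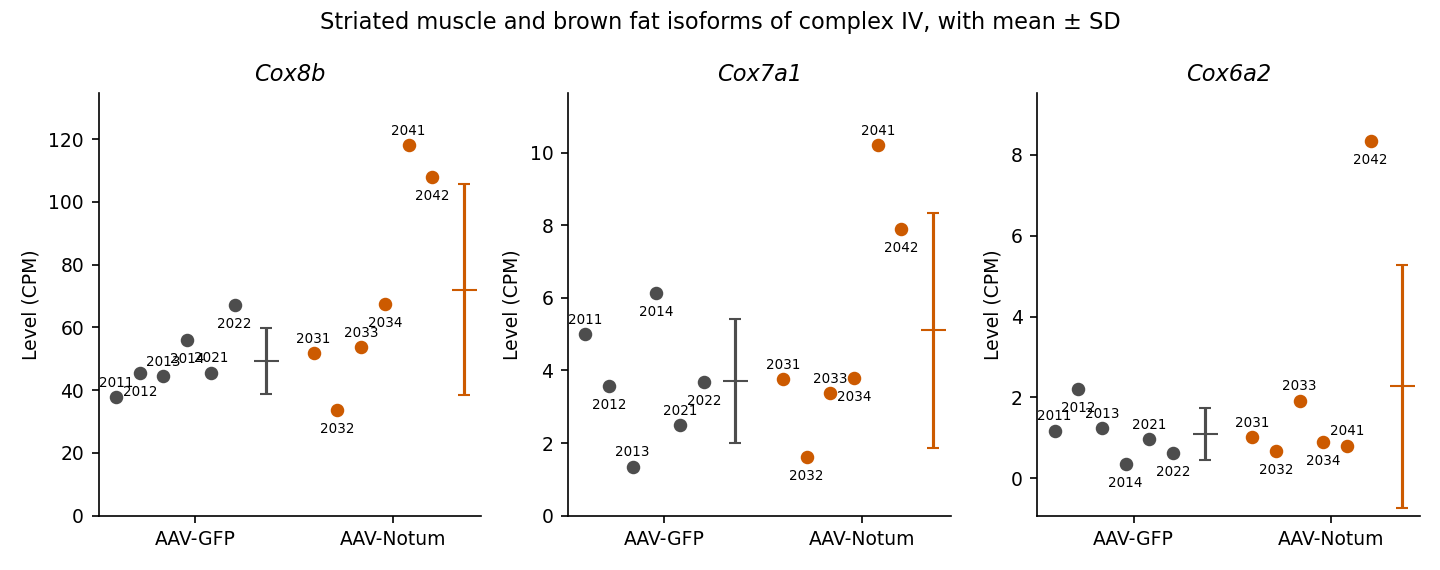
Level (CPM) of Cox8b, Cox7a1 and Cox6a2 in each mouse, named by its number, with the mean and SD of each group of 6 beside the points. Cox8b and Cox7a1 are highest in AAV-Notum-2041 and AAV-Notum-2042, whereas Cox6a2 is high in AAV-Notum-2042 alone, at 8.35 CPM.

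Genes that act on the respiratory chain were read from lists. Of the 183 genes tested in all lists, the regulators of mitochondrial biogenesis counted in, 0 had an adjusted p under 0.05 in edgeR or limma-voom. DESeq2 called 3 higher and 0 lower, where it called 0.584% of all genes higher: Sdhaf1, an assembly factor of complex II (log2 fold change 0.35, adjusted p = 0.00800), Mrpl24 (0.13, adjusted p = 0.0301) and Esrra (0.28, adjusted p = 0.0445). With the white adipocyte score as a covariate in edgeR, which called 1.13% of all genes higher, 5 were called higher and 0 lower, namely Sdhaf1, Mrpl16, Mrpl18, Mrpl46 and Esrra (adjusted p of 0.0358 to 0.0494). Of 9 subunits whose symbols the rule leaves out, such as Cyc1, 0 were higher at an unadjusted p under 0.05 and 1 lower (Ndufa4l2), with a median log2 fold change of 0.10. By the same measure, which called 4.64% of all genes tested higher and 9.54% lower, 0 of 16 assembly factors of complex I, 1 of 4 of complex II, 1 of 6 of complex III, 0 of 21 of complex IV and 0 of 4 of complex V were higher, and 0 of them lower. For coenzyme Q synthesis 1 of 13 was higher, for mitochondrial DNA copying and transcription 1 of 22, and among mitochondrial ribosomal proteins 5 of 77 (6.49%) were higher and 1 lower. Median log2 fold changes of the assembly, coenzyme Q, mitochondrial DNA and ribosome lists ran from 0.02 to 0.08. The groups were apart, with AAV-Notum mice higher, in 3 of the 183 genes (1.64%), where 0.398% of all genes were. Pdss1, which makes the side chain of coenzyme Q, had 3.69 to 4.51 CPM in AAV-GFP and 4.58 to 5.50 CPM in AAV-Notum mice. Ssbp1, which binds single-stranded mitochondrial DNA, had 20.6 to 23.0 and 23.6 to 26.8 CPM. Mrpl24, of the large mitochondrial ribosomal subunit, had 88.2 CPM at most in AAV-GFP and 89.6 CPM at least in AAV-Notum mice. With the groups apart, the exact permutation p can only be 0.00216, the smallest that 6 mice against 6 allow. It restates the separation by which these genes were picked. Their adjusted p from edgeR were 0.242, 0.231 and 0.286.

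Among regulators of mitochondrial biogenesis, the median log2 fold change was 0.19, and 2 of 11 were higher at an unadjusted p under 0.05 and 0 lower (background 4.64% and 9.54%). Esrra, the estrogen-related receptor alpha that activates respiratory genes, had 33.8 to 42.6 CPM in AAV-GFP and 40.5 to 54.1 CPM in AAV-Notum mice, and its log2 fold change was 0.28 (p = 0.00742, standard error 0.09, adjusted p = 0.208, exact permutation p = 0.00866). Esrra is among the genes that DESeq2 and the fit with the white adipocyte score called. Ppargc1a, the coactivator of Esrra, had 17.0 ± 3.15 and 18.3 ± 8.30 CPM (SD, n = 6 each; log2 fold change 0.10, adjusted p = 0.837), with AAV-Notum-2041 and AAV-Notum-2042 again the highest at 24.5 and 32.0 CPM. Nrf1 and Gabpa, which bind promoters of nuclear subunits, had log2 fold changes of 0.19 and -0.07 (adjusted p = 0.528 and 0.586). Tfam, which packages and transcribes mitochondrial DNA, had 40.7 ± 5.56 and 46.3 ± 2.48 CPM (log2 fold change 0.19, adjusted p = 0.367).

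The promoters of the nuclear members were searched for letters known for these factors. Promoter windows of RefSeq on GRCm38.p6, from 250 bases before to 50 after a gene's start, matched 68 of the 82 nuclear members. GCGC and TGCGC with 1 base (N) between them, the core of the Nrf1 site, were found together on either strand in 17 of the 68 (25.0%), against 10.6% of the 11221 genes tested here that matched a window. CCGGAAG, bound by Ets factors such as Gabpa, was found in 16 (23.5%, against 18.6%), and AAGGTCA, bound by estrogen-related receptors, in 8 (11.8%, against 4.11%). A match is a description of the sequence and not a bound site. Stretches around some matches that lie before the start are shown 5′ to 3′ on the strand of the gene, the minus strand in each case, with the matched letters in capitals, for the succinate oxidizing Sdha, the membrane anchor Sdhd with matches to Nrf1 and Ets letters close together, and Uqcrh, whose p was the smallest in complex III.
Sdha, Nrf1 letters (chr13:74350276-74350305): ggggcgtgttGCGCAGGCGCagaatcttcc
Sdhd, Nrf1 letters (chr9:50603909-50603938): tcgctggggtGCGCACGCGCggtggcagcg
Sdhd, Ets letters (chr9:50603879-50603905): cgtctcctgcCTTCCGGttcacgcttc
Uqcrh, Ets letters (chr4:116075071-116075090): gtatgccgcaCTTCCGGcca
The matches lie on the opposite strand to that of the gene in all 4 stretches, so the capitals read as the reverse complement of the letters searched. The log2 fold changes of these genes were 0.0025 for Sdha, 0.09 for Sdhd and 0.28 for Uqcrh.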

How the data were processed

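RNA-seq of iWAT from 12 mice (6 AAV-GFP, 6 AAV-Notum) was analysed from the deposited tables, and the labels gave the groups. Libraries were made by the authors with TruSeq, read as 50-base single ends, checked with FastQC and mapped to mm10 with STAR 2.3.1. The main table holds raw counts per gene as deposited, and the other deposited table holds log2 values of reads divided by a factor per mouse, plus 1. The counting program, its annotation and its treatment of reads with several matches are not given in the sources used here.

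Members and lists were chosen with earlier results of these data known. The filter filterByExpr kept genes by a minimum count of 10 and a minimum total of 15. Counts were scaled with TMM and tested with edgeR 4.0.16 (glmQLFit and glmQLFTest, two-sided) in R 4.3.3, with Benjamini-Hochberg adjustment over 15585 genes. CPM are counts scaled to the TMM library size, and 2 was the prior count of log2 CPM. Exact permutation tests, two-sided, ran over the 924 splits of 12 mice into 6 and 6. Each mouse gave 1 library, so p-values measure the spread between mice. Levels per kb use the length of the APPRIS principal transcript of GENCODE release 21. Windows of 50 bases were compared letter for letter, on both strands, with the annotated transcripts of other genes. Unannotated copies were not searched.

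Named were all mitochondrial-encoded genes, core and isoform subunits, the smallest p of each complex in each direction, any member with an adjusted p under 0.05 or without overlap, and from the lists such genes plus Ppargc1a, Esrra, Nrf1, Gabpa, Tfam and Cyc1. Ndufa6, Ndufv3, Ndufa4, Ndufb2, Ndufb6, Cox7c, Cox8c, Atp5l, Sdhaf1, Mrpl16, Mrpl18 and Mrpl46, and the marker genes given with values, were added with their values known. The alternatives tried were DESeq2 1.42.0, limma-voom (limma 3.58.1), RLE factors, other filters, library sizes without mitochondrial-encoded genes, covariates (RNA integrity number, lymphoid, skeletal muscle or white adipocyte score), the log2 table tested with limma, and mice left out. The fits were tested on simulated data, where DESeq2 made a larger share of false calls than edgeR or limma-voom. Those counts were drawn gene by gene from dispersions that edgeR estimated, so the share of false calls in the real data was not measured. No amino acid sequence is shown, since no protein table was used here. A core subunit that the naming rule covers is not reported here by name.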

Additional observations from a re-analysis of the deposited data

Results flagged for a closer look

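In groups of 6 mice, 6 of 154 sets of values held a mouse whose gap to the nearest other, as a share of the whole spread in that group, exceeded 0.625, the critical value of Dixon's test. Chance alone gives about 7.70 such sets. Cox6a2 in AAV-Notum-2042 was at 8.35 CPM against 0.681 to 1.92 CPM in the other AAV-Notum mice (gap ratio 0.838), and its share of Cox6a2 and Cox6a1 was 1.66% against 0.184% to 0.469% (0.807). Skeletal muscle markers in the same mouse summed to 5298 CPM against 36.3 to 763 CPM (0.862). Hepatocyte markers summed to 5382 CPM in AAV-GFP-2013 against 45.6 to 1428 CPM in the other AAV-GFP mice (0.741), and to 776 CPM in AAV-Notum-2041 against 20.1 to 139 CPM (0.843). The mitochondrial ribosomal RNA mt-Rnr2 was at 1832 CPM in AAV-GFP-2013 against 969.9 to 1188 CPM (0.747).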

How the results depend on the processing

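In every alternative, 0 subunits were lower at an unadjusted p under 0.05, where 4.91% to 13.6% of all genes were. Higher at that threshold were 50 with the lymphoid score (background 4.20%) and 39 with the white adipocyte score (14.0%) as a covariate, in place of 4 (4.64%). The fit with the white adipocyte score gave 3 with an adjusted p under 0.05 (background 1.13%). With 1 mouse left out the count ran from 0 (without AAV-Notum-2042, background 6.77%) to 12 (without AAV-Notum-2032, background 3.78%), with 0 at the adjusted threshold throughout. It was 1 without AAV-GFP-2013 (background 6.15%) or AAV-Notum-2034 (3.15%). The count was 2 without AAV-GFP-2011 (2.88%), AAV-GFP-2012 (the mouse of the other isolation day, 2.99%), AAV-Notum-2033 (4.01%) or AAV-Notum-2041 (4.28%). The medians of nuclear and mitochondrial-encoded genes ran from 0.12 to 0.32 and from 0.23 to 0.58 in the fits with every mouse. With 1 mouse left out they ran from 0.03 to 0.19 and from 0.11 to 0.46, and the difference of the log2 ratio of mitochondrial-encoded to nuclear-encoded genes from -0.01 to 0.26.

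Several fold changes changed sign, those near 0 and also the larger ones of Cox6a2, Nrf1 and mt-Nd5. With the RNA integrity number, the lymphoid score and the white adipocyte score as covariates, and without AAV-GFP-2011 and AAV-GFP-2014, in this order, the log2 fold change of Ndufs7 was 0.04, 0.16, 0.04 and 0.09, of Ndufv1 0.04, 0.23, 0.08 and 0.13, of Atp5b 0.04, 0.26, 0.11 and 0.17, of Atp5g2 -0.04, -0.24, -0.02 and -0.18, and of Atp5g3 0.0015, 0.16, 0.0082 and 0.08. Ndufa7 was at 0.16 (lymphoid), 8.3e-04 (white adipocyte) and 0.07 (without both AAV-GFP mice), and Nrf1 at -0.08 (lymphoid). Atp5b was also above 0 with DESeq2 or RLE factors (0.0021), limma-voom (0.01), the filters of at least 1 count in all (0.007) and of 10 counts in every mouse (0.02), the skeletal muscle score (0.0097) and the log2 table (0.008). With 1 mouse left out, values ran from -0.07 to 0.09 for Cox8a, -0.08 to 0.10 for Atp5b, -0.08 to 0.09 for Sdha, -0.07 to 0.10 for Sdhc, -0.0014 to 0.17 for Sdhd, -0.10 to 0.06 for Ndufv1, -0.11 to 0.01 for Ndufs7, -0.03 to 0.14 for Ndufs3, -0.0099 to 0.13 for Uqcrc1, -0.01 to 0.13 for Atp5a1, -0.0044 to 0.17 for Atp5c1, -0.03 to 0.23 for Atp5g2, -0.23 to 0.01 for Cox6b2, -0.04 to 1.37 for Cox6a2, -0.06 to 0.36 for mt-Nd5 and -0.13 to 0.21 for Ppargc1a. The cause of these changes was not tested. Genes under about 2 CPM, such as Atp5g1, Atp5g2, Cox6a2 and Cox6b2, carry more counting error than the rest. No paired analysis was possible because the groups share no replicate numbers.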

Other observations

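Some genes of the lists were higher or lower at an unadjusted p under 0.05 from edgeR and were picked out after their values were seen. Sdhaf1, an assembly factor of complex II, had 19.8 ± 2.06 CPM in AAV-GFP and 25.3 ± 2.08 CPM in AAV-Notum mice (SD, n = 6 each; log2 fold change 0.35, adjusted p = 0.140, exact permutation p = 0.00649). Lyrm7, which helps insert the Rieske protein into complex III, had 4.44 ± 0.530 and 5.70 ± 1.03 CPM (0.36, adjusted p = 0.297). Ppargc1b, a relative of Ppargc1a, had 14.6 ± 5.41 and 21.9 ± 6.80 CPM (0.58, adjusted p = 0.328). Ndufa4l2, a relative of Ndufa4 known to be induced by low oxygen, had 5.70 ± 2.19 and 3.66 ± 0.747 CPM (log2 fold change -0.64, adjusted p = 0.310).

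The mitochondrial ribosomal RNAs were highest in AAV-Notum-2041, with 2061 CPM of mt-Rnr1 and 3169.8 CPM of mt-Rnr2. AAV-Notum-2042 had 1037 and 2292 CPM, and AAV-GFP-2013, whose mitochondrial-encoded subunits summed to 42973 CPM, had 1144 and 1832 CPM. In the other 9 mice they were at 386 to 854 CPM and 841 to 1188 CPM.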
